A study of Arabidopsis thaliana with 10 samples.

Results

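Photosystem I and photosystem II are the pigment-protein complexes of the thylakoid membrane that turn light into electron flow, and the proteins at their centres are encoded in the chloroplast's own genome. Those of photosystem I examined here are psaA and psaB, whose products form the reaction centre that holds the primary donor P700, psaC, whose product carries the terminal iron-sulfur clusters on the stromal side, and psaI and psaJ, which encode small membrane subunits. Those of photosystem II are psbA and psbD, which encode the reaction centre proteins D1 and D2, psbB and psbC, which encode the inner antenna proteins CP47 and CP43, and psbE, which encodes a subunit of cytochrome b559. The 10 genes were taken from the list of core genes that a probe set of the array names alone, and they are 10 of 69 chloroplast-encoded genes with such a probe set, among 22746 probe sets that are not controls. All 10 were bright enough on average to be among the 12453 probe sets compared.

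Transcripts were measured on 10 Affymetrix ATH1 arrays with RNA from leaves of soil-grown Arabidopsis thaliana of the Columbia background, harvested on day 30 in short days, each sample from a pool of 10 to 15 plants. The 3 groups were the wild-type (3 arrays), the oxidative stress-tolerant mutant *oxt6*, which has a T-DNA insertion in At1g30460, the gene for the polyadenylation factor subunit AtCPSF30 (3 arrays), and complemented plants, which are *oxt6* plants with a transgene under the gene's own upstream sequence that yields only the smaller of its 2 proteins (4 arrays, 2 from each of the independent transformants line 5 and line 6). The complemented plants thus also carry the insertion and lack the larger protein. The comparisons ask whether core gene transcripts changed with loss of AtCPSF30, and whether they returned to the wild-type level with the smaller protein.

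Chloroplast genes are transcribed in clusters by a bacterial-type and a phage-type polymerase, and the long transcripts are cut into smaller messages by nuclear-encoded proteins. The nuclear polyadenylation machinery, to which AtCPSF30 belongs, does not act inside the organelle. Chloroplast messages mostly lack a stable poly(A) tail, whereas the standard labelling of these arrays starts from oligo(dT). How much of each chloroplast message was labelled was not measured here, and in whole leaves fewer chloroplasts and less RNA per chloroplast cannot be told apart.

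The PLIER intensities are linear with a floor at 16, and their median was 40.9 to 60.5 per array. From 11 to 2920 probe sets of an array were at that floor, *oxt6* replicate 1 having the most. The probe set of At1g30460 recognises, according to the study, only the larger of the gene's mRNAs, which the transgene does not yield. It was dim and read 38.7 to 71.2 in the wild-type, 27.1 to 54.7 in *oxt6* and 16 to 18.7 in the complemented plants, and since it overlapped between wild-type and mutant it did not check those labels. The log2 excess of 3' over 5' control probe sets, averaged over 3 genes, was 2.18 ± 0.18 on the wild-type arrays (SD, n = 3). On the *oxt6* arrays it was 2.24 ± 1.002 (SD, n = 3), and on the complemented arrays it was 0.039 ± 0.069 (SD, n = 4), below the wild-type by a two-sided exact permutation test (p = 0.0286, which is the lowest value possible with 3 and 4 arrays). This 3'/5' signal depends on RNA integrity and labelling, and in the complemented arrays it cannot be told apart from the genotype. Of the 5 leaf mesophyll markers only RCA and PRK, for the carbon-fixation enzymes Rubisco activase and phosphoribulokinase, were matched, and their summed intensity was 1462 to 2105 in the wild-type, 1089 to 4106 in *oxt6* and 8028 to 11337 in the complemented plants. Of the 5 root markers only EXP7 was matched, at 42.2 to 56.9, 29.8 to 48.6 and 16 to 28.2 in the same order, and no marker of flower, seed or senescence was matched. The part of these differences in the results below was not tested.

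Against the wild-type few core genes passed the test in the mutant, which with 3 arrays per group does not show that the others were unchanged. Of the 10 only psbC, for CP43, passed the test, and it was lower in *oxt6*; no core gene was higher (limma, adjusted p under 0.05 over all probe sets compared). Over all probe sets 28.7% passed in this comparison, 16.4% higher and 12.3% lower. At an unadjusted p under 0.05, psbB was also lower and psbE higher. By the methods' t-test after adjustment psaC was the 1 gene that passed, and psbC was not. The median log2 difference over the core genes was -0.23, beside -0.04 over all probe sets. By gene it was -0.998 at psbC, -0.63 at psbB, 0.59 at psbE, -0.56 at psbA and -0.13 at psbD. Over the photosystem I genes it ran from -0.30 to 0.19. Arrays of the mutant and the wild-type did not overlap at 4 of the 10, beside 40.9% of all probe sets.

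Against the complemented plants, 6 of the 10 core genes differed, psaC, psaI, psaJ and psbE being higher in *oxt6* and psaA and psbC lower, where 69.3% of all probe sets passed, 32.3% higher and 37.0% lower. Between the complemented plants and the wild-type 6 of 10 differed, psaA being higher in the complemented plants and psaC, psaI, psaJ, psbB and psbE lower, where 71.8% of all probe sets passed, 38.0% higher and 33.8% lower. The arrays did not overlap at 6 of the 10 between *oxt6* and the complemented plants and at 7 of the 10 between the complemented plants and the wild-type, beside 68.3% and 74.3% of all probe sets. In both directions together none of these counts exceeds its background; by direction, the 5 lower in the complemented plants and the 4 higher in *oxt6* are larger shares of the 10 than the backgrounds of 33.8% and 32.3%, and no test was made of that. The gene psaA is counted in both comparisons although it was compared only through the complemented arrays, as described below. These comparisons share arrays and are not independent of each other.

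**Figure D1:**
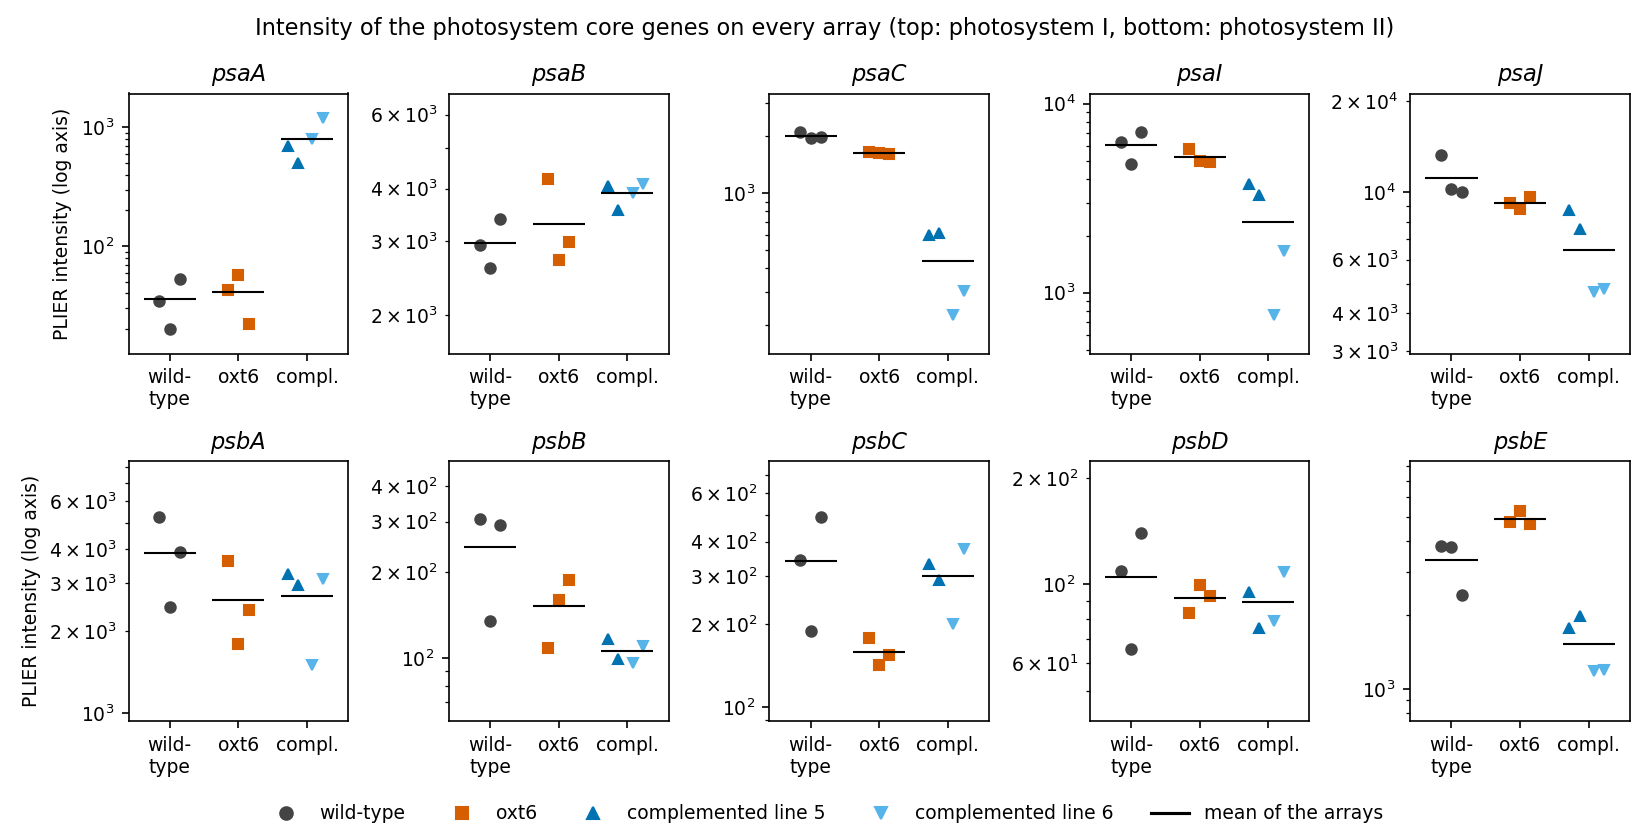
Intensity of each core gene on every array (vertical axes, logarithmic, with their own range per gene; horizontal position, group), with points for arrays and bars for the mean of the intensities of a group. psaA read under 60 on the 6 wild-type and *oxt6* arrays and above 500 on the 4 complemented arrays, whereas psaC, psaI, psaJ and psbE were lowest on complemented arrays, and psbC was lowest on the *oxt6* arrays.

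The reaction centre gene psaA (probe set 245007_at) showed the largest difference of the 10. Its intensity was 34.6, 19.9 and 52.8 in wild-type replicates 1 to 3, and 42.6, 57.5 and 22.2 in *oxt6* replicates 1 to 3. In the complemented plants it was 696.3 and 505.5 in line 5 and 804.2 and 1207.1 in line 6. All 4 complemented arrays lay far above the other 6, while mutant and wild-type arrays overlapped. The complemented plants exceeded the wild-type by log2 4.48 (SE 0.37, adjusted p = 6.93e-07), or 22.4-fold, and *oxt6* lay below the complemented plants by a log2 of -4.30 (SE 0.37, adjusted p = 7.26e-07). Between *oxt6* and the wild-type the log2 difference was 0.19 (SE 0.39, adjusted p = 0.756). The gene was among those compared only through the complemented arrays: it ranked 1130 in intensity there, but 16577 in the wild-type and 14036 in *oxt6*, both outside the 12453 compared. Its inclusion therefore required a difference, and the adjusted p values above come from that filtered set. In limma with no filter the adjusted p was 1.73e-07 between the complemented plants and the wild-type, and 1.66e-07 between *oxt6* and the complemented plants. The fold of psaA rests on readings close to the floor, with a log2 of 3.97 in place of 4.48 when 16 instead of 1 was added to each intensity.

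Its partner psaB (probe set 245006_at), whose product pairs with that of psaA in the reaction centre, differed far less. The wild-type arrays read 2947.6, 2597 and 3383.8, and the *oxt6* arrays 4208.5, 2711.6 and 2992. Line 5 read 4069.1 and 3554.3, and line 6 read 3917.4 and 4100.1. All complemented arrays lay above all wild-type arrays, by a log2 of 0.40 (SE 0.17, adjusted p = 0.0529), which did not pass, and the *oxt6* arrays overlapped both groups. The difference did pass in some alternatives, among them the fit on only the groups compared (adjusted p = 0.0171). The genes psaA and psaB lie side by side in the chloroplast genome and are transcribed together with rps14, a ribosomal protein gene, which was lower in the complemented plants than in the wild-type by log2 -1.80 (adjusted p = 8.12e-06).

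For psaC (probe set 244932_at) the wild-type arrays read 2095.7, 1941.1 and 1977.1 and the *oxt6* arrays 1645.2, 1621.5 and 1604.3. Line 5 read 596 and 612.3, and line 6 read 225.8 and 302.9. The groups did not overlap, and they ran from the wild-type through *oxt6* to line 5 and then line 6. The complemented plants were lower than the wild-type by log2 -2.33 (adjusted p = 1.37e-05) and *oxt6* was higher than the complemented plants by 2.03 (adjusted p = 4.51e-05). The mutant was below the wild-type on every array, by a log2 of -0.30 that did not pass (adjusted p = 0.508), though it did by the methods' t-test (adjusted p = 0.0289). The decrease of psaC in the complemented plants passed in each of the 23 alternative settings run.

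Of the genes for small photosystem I subunits, psaI (probe set 245017_at) read 6307.9, 4806.6 and 7074.6 in the wild-type and 5749, 4998.6 and 4915 in *oxt6*. Line 5 read 3777.4 and 3274.8, and line 6 read 761.9 and 1669.5. Every complemented array was below every other array, and the line 6 arrays were lowest. The complemented plants differed from the wild-type by log2 -1.59 (adjusted p = 0.00379), *oxt6* from the complemented plants by 1.39 (adjusted p = 0.00916), and *oxt6* from the wild-type by -0.20 (adjusted p = 0.770).

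The gene psaJ (probe set 244967_at) read 13213, 10244 and 10002 in the wild-type and 9243.7, 8813.2 and 9670.3 in *oxt6*. Line 5 read 8720.1 and 7542.1, and line 6 read 4701.8 and 4807.6. As with psaC the groups did not overlap, but the steps were smaller. The complemented plants were lower than the wild-type by log2 -0.83 (adjusted p = 0.00333), and *oxt6* exceeded them by 0.57 (adjusted p = 0.0288). The latter was lost when *oxt6* replicate 1, 2 or 3 or line 6 replicate 1 or 2 was left out (adjusted p = 0.0508, 0.0526, 0.0760, 0.0841 and 0.0783). It was also lost by the methods' t-test (adjusted p = 0.0957), with arrays centred on their median (0.0908), with no filter (0.0531) and against line 5 alone (0.238), and it held in 10 of 23 alternatives. Mutant and wild-type differed by -0.26 (adjusted p = 0.426).

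In photosystem II, the gene for the D1 protein, psbA (probe set 245047_at), read 5256.2, 2444.2 and 3893.9 in the wild-type, and 3623.6, 1793.6 and 2396.8 in *oxt6*. Line 5 read 3246.3 and 2961.1, and line 6 read 1499.2 and 3101.1. The groups overlapped, and no difference passed: the log2 was -0.56 for *oxt6* against the wild-type (adjusted p = 0.249), -0.05 for *oxt6* against the complemented plants (adjusted p = 0.897) and -0.51 for the complemented plants against the wild-type (adjusted p = 0.169). Among the alternative settings run, psbA did not pass in 19 of 20 for *oxt6* against the wild-type. It did not pass in 22 of 23 for each of the other comparisons.

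The gene for the D2 protein, psbD (probe set 245002_at), showed no difference past the threshold. It read 109.1, 65.6 and 139.7 in the wild-type, 82.9, 99.5 and 92.8 in *oxt6*, 94.9 and 75.2 in line 5 and 79 and 108.3 in line 6. The wild-type arrays spanned the whole range of the others. Log2 differences were -0.13, 0.05 and -0.18 for *oxt6* against the wild-type, *oxt6* against the complemented plants and the complemented plants against the wild-type (adjusted p = 0.731, 0.856 and 0.4997).

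The antenna gene psbC (probe set 245003_at) was the only core gene with every mutant array below every other array. It read 343.8, 188.7 and 490.8 in the wild-type and 179, 142.3 and 155.4 in *oxt6*. Line 5 read 332.8 and 289, and line 6 read 200.4 and 374.8. Wild-type and complemented arrays overlapped. The log2 difference was -0.998 (SE 0.31, adjusted p = 0.0276) against the wild-type and -0.88 (SE 0.29, adjusted p = 0.0152) against the complemented plants, and -0.12 (adjusted p = 0.720) between the complemented plants and the wild-type. The call against the wild-type was lost without wild-type replicate 1 or 3 or *oxt6* replicate 2 or 3 (adjusted p = 0.0845, 0.121, 0.0779 and 0.0705), with arrays centred on their median (0.0671) and by the methods' t-test after adjustment (0.251). The call against the complemented plants was lost without *oxt6* replicate 2 (adjusted p = 0.0572), with quantile normalization (0.0683) and against line 6 alone (0.0804), and it held in 17 of 23 alternatives.

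The other antenna gene, psbB (probe set 244972_at), did not share that pattern. It read 305.4, 135.3 and 292.6 in the wild-type, 108.6, 159.3 and 187.1 in *oxt6*, 116.8 and 99.1 in line 5 and 96.3 and 109.9 in line 6. The complemented arrays were all below the wild-type arrays, and the mutant arrays overlapped both. The complemented plants were lower than the wild-type by log2 -1.12 (adjusted p = 0.00202), and *oxt6* differed from the wild-type by -0.63 (adjusted p = 0.118) and from the complemented plants by 0.49 (adjusted p = 0.119). Without wild-type replicate 2, the lowest of its group, *oxt6* was lower than the wild-type by log2 -1.01 (adjusted p = 0.00777). In 19 of 20 alternatives that difference did not pass.

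The gene psbE (probe set 244964_at) had its highest readings in the mutant. It read 3818.3, 3773.2 and 2415.2 in the wild-type and 4768.1, 5261.6 and 4693.3 in *oxt6*. Line 5 read 1762.5 and 1976.7, and line 6 read 1187.1 and 1196.8. The 3 groups did not overlap. It was higher in *oxt6* than in the complemented plants by a log2 of 1.72 (adjusted p = 1.66e-05), lower in the complemented plants than in the wild-type by -1.13 (adjusted p = 4.62e-04), and 0.59 above the wild-type in the mutant, which did not pass (SE 0.24, adjusted p = 0.0810). That difference passed in the fit on only the groups compared (adjusted p = 0.0330) and with the lines as separate means (adjusted p = 0.0172). In 18 of 20 alternatives it did not pass.

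**Figure D2:**
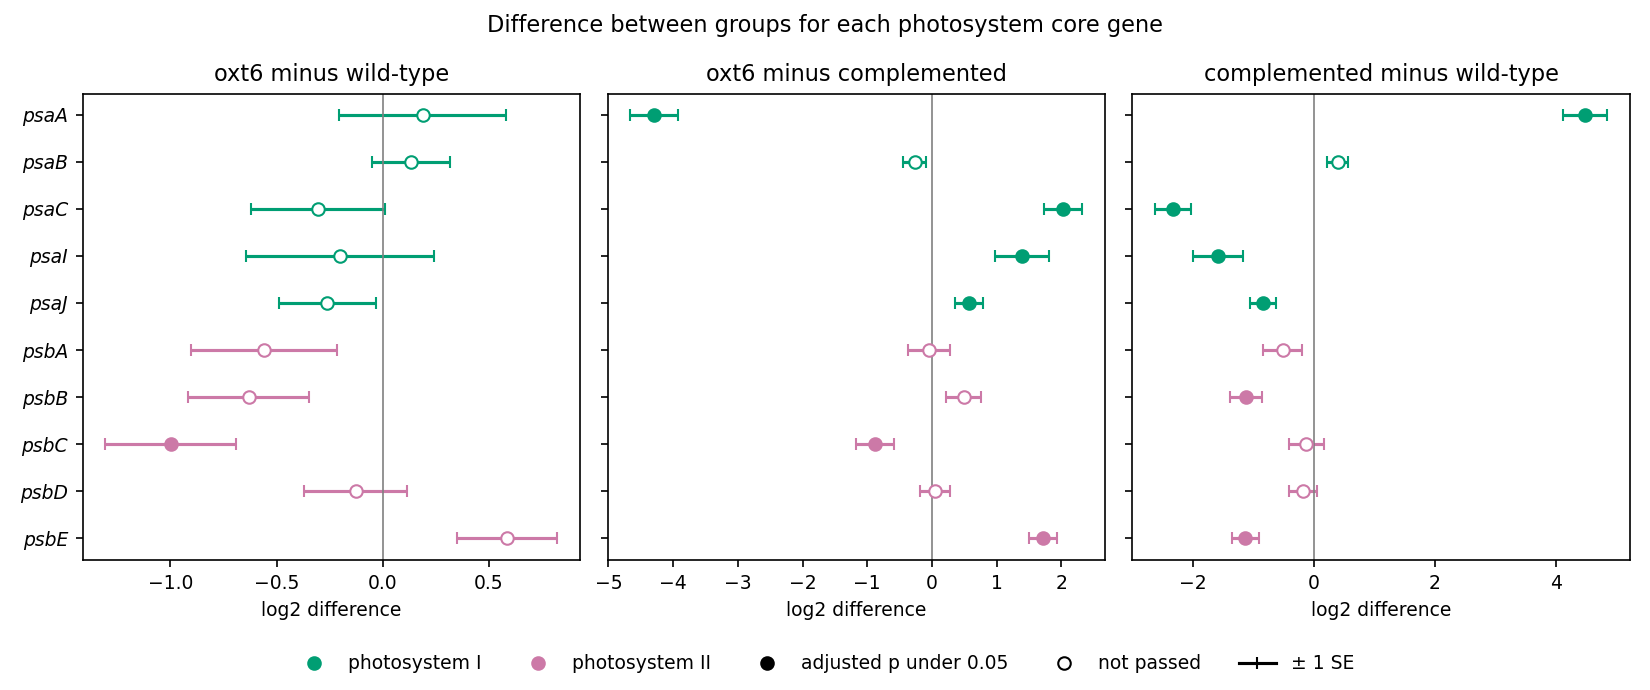
Log2 difference (horizontal axes, each with its own range) of each core gene in the 3 comparisons, with bars for 1 SE from limma and filled points where the adjusted p was under 0.05. Only psbC, at -0.998, is filled for *oxt6* minus wild-type, and psaA, at 4.48, stands opposite to the other filled points for complemented minus wild-type.

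Adding the 3'/5' signal to the model left fewer of these calls. Of the 6 between the complemented plants and the wild-type, psaA (log2 4.48, adjusted p = 0.00359) and psaC (-2.21, adjusted p = 0.0241) passed, and of the 6 between *oxt6* and the complemented plants, psaA (-4.30, adjusted p = 0.00554) and psbE (1.68, adjusted p = 0.0277) passed, while psaC missed the threshold (1.90, adjusted p = 0.0550). Most calls were lost with a similar log2 difference: against the complemented plants *oxt6* was at 1.31 for psaI, 0.504 for psaJ and -0.87 for psbC, and the complemented plants against the wild-type were at -1.51 for psaI, -0.77 for psaJ and -1.095 for psbE. At psbB the difference itself was smaller, -0.12 in place of -1.12. The calls of psaA have the limit given above, since it was compared only through the complemented arrays. The fit leans on *oxt6* replicate 1, at a signal of 1.09, since the signal varied little within the other groups.

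The 2 photosystems were compared by the median over their 5 genes of each array's log2 deviation from the wild-type mean. On *oxt6* arrays this median was -0.20 ± 0.12 for photosystem I and -0.36 ± 0.14 for photosystem II (SD, n = 3). On complemented arrays it was -0.83 ± 0.45 for photosystem I and -0.52 ± 0.49 for photosystem II (SD, n = 4). On wild-type arrays the same medians spread by an SD of 0.19 for photosystem I and 0.52 for photosystem II (n = 3), mainly through replicate 2, where photosystem II stood at -0.60. The difference between the photosystems on an array, I minus II, was 0.16 ± 0.13 on *oxt6* arrays (SD, n = 3) and -0.31 ± 0.43 on complemented arrays (SD, n = 4), against 0.03 ± 0.33 on wild-type arrays (SD, n = 3). It ran from 0.0095 to 0.26 on *oxt6* arrays, from -0.95 to 0.011 on complemented arrays and from -0.16 to 0.41 on wild-type arrays, so that the groups overlapped, and no test was made on a score over the genes.

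For *oxt6* against the wild-type 0 of 5 photosystem I and 1 of 5 photosystem II genes passed in limma. Over all probe sets 28.7% passed. The photosystem medians were -0.20 and -0.56. At an unadjusted p under 0.05 the counts were 0 and 3, and by the methods' t-test psaC passed. For *oxt6* against the complemented plants 4 of 5 and 2 of 5 passed, beside 69.3% of all probe sets, with medians of 0.57 and 0.05. For the complemented plants against the wild-type 4 of 5 and 2 of 5 passed, beside 71.8%, with medians of -0.83 and -0.51. These photosystem II values leave out the 10 other chloroplast psb genes described below. Between the complemented plants and the wild-type 9 of those were lower and 1 higher, with a median of -1.54. Between *oxt6* and the complemented plants 8 were higher in *oxt6* and 1 lower, with a median of 1.18. A larger change in photosystem I thus cannot be read from the 5 genes. The photosystem I counts include psaA, with the limit given above, and the difference between the photosystems was not tested. In both photosystems members moved in opposite directions in at least 1 comparison: psaA against psaC, psaI and psaJ, and psbC against psbE. The photosystem I median in the complemented plants therefore does not show the increase of psaA.

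**Figure D3:**
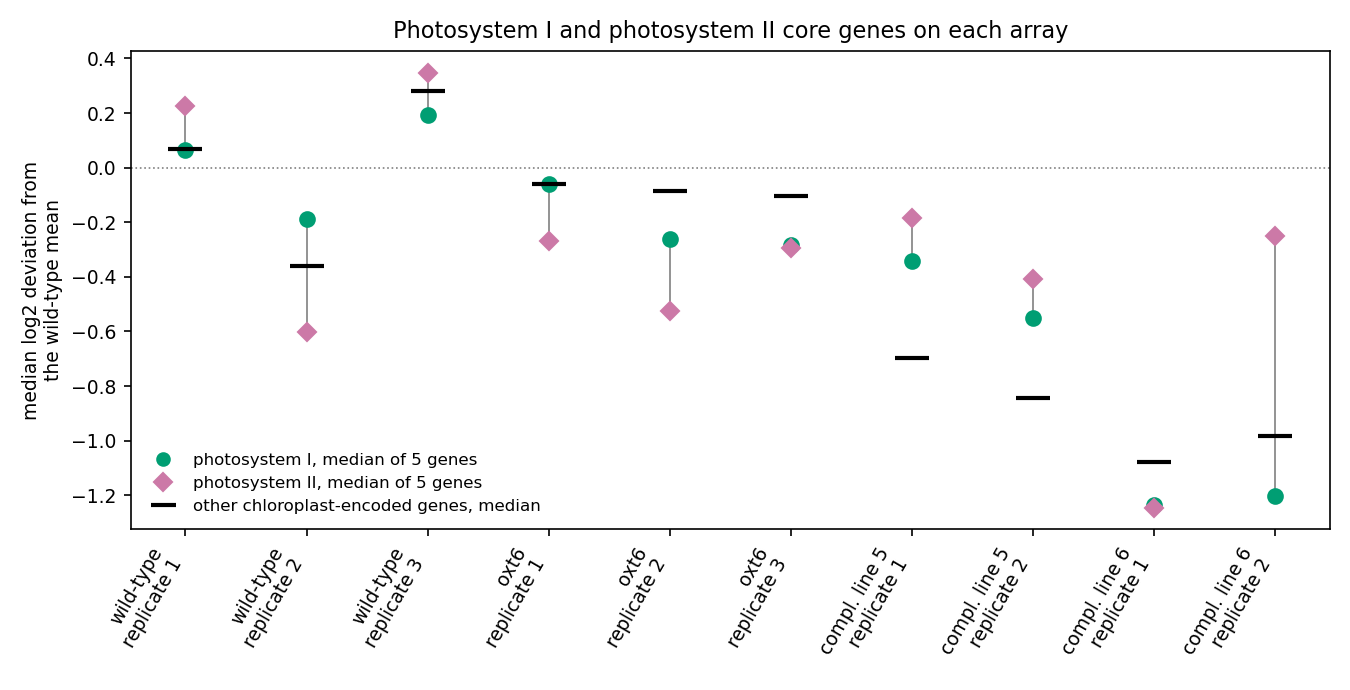
Median log2 deviation from the wild-type mean (vertical axis) over the 5 photosystem I genes (circles), the 5 photosystem II genes (diamonds) and the other chloroplast-encoded genes (bars) on each array (horizontal axis). The photosystem medians separate most on line 6 replicate 2, at -1.20 for photosystem I and -0.25 for photosystem II.

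The independent complemented lines differed at some core genes. In line 6 psaC was lower than in line 5 by a log2 of -1.21 (adjusted p = 0.00128), psaI by -1.64 (adjusted p = 0.00588) and psaJ by -0.77 (adjusted p = 0.00766), so that 3 of the 10 passed, all in photosystem I, where 4.26% of all probe sets passed (limma with lines as separate means, a comparison added after seeing the data). Without line 5 replicate 1, 1 of the 3 passed. The psbE arrays of line 6 were also below those of line 5, by -0.65 (adjusted p = 0.118), and psaA was 0.73 higher (adjusted p = 0.544). Low readings in line 6 were not confined to photosystem I. At petL line 5 read 2008.5 and 1669.3 and line 6 read 303.2 and 378.3, while others, such as atpA, were higher in line 6. The median deviation of the other chloroplast-encoded genes was -0.70 and -0.84 in line 5 and -1.08 and -0.98 in line 6. Calls between the lines were not counted for those genes. Each line alone still differed from the wild-type in the same direction at psaA (log2 4.12 in line 5 and 4.85 in line 6), psaC (-1.73 and -2.93), psaI (-0.77 and -2.41), psaJ (-0.45 and -1.22), psbB (-1.09 and -1.15) and psbE (-0.81 and -1.45), with an adjusted p of at most 0.0233. For psaA these calls have the limit given above, since it was compared only through these complemented arrays.

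The chloroplast genome also holds other photosystem II genes. All 10 other psb genes were compared, most of which encode small photosystem II subunits, while psbN encodes a protein needed for its assembly. In *oxt6* against the wild-type 0 of 10 passed in limma, beside 28.7% of all probe sets, with log2 differences from -0.498 to 0.19, and 1, psbM, at an unadjusted p under 0.05. The methods' t-test called 1, the fit on only the groups compared called 2 and the fit with array weights, whose estimation stopped before reaching its tolerance, called 4, all lower in *oxt6*.

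In the complemented plants 9 of these 10 were lower than in the wild-type, beside 33.8% of all probe sets, and psbH was higher, beside 38.0%. The largest decreases were those of psbT (log2 -2.54), psbK (-2.17), psbN (-2.09) and psbL (-1.72), followed by psbI and psbZ (both -1.54), psbF (-1.13), psbJ (-0.85) and psbM (-0.47). The gene psbH, for a phosphorylated photosystem II subunit, rose by 1.32 (adjusted p = 8.43e-04). Its arrays read 293.1 to 581.3 in the wild-type and 870.4 to 1562.8 in the complemented plants. With the 3'/5' signal as a covariate 3 of the 10 passed, all lower. Against *oxt6*, the complemented plants were lower at 8, higher at psbH and did not differ past the threshold at psbM (log2 of *oxt6* over complemented 0.12, adjusted p = 0.432).

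Of the chloroplast genes for photosystem I assembly, ycf3 was lower in the complemented plants than in the wild-type by log2 -2.30 (adjusted p = 1.48e-05), and ycf4 differed by 0.61 (adjusted p = 0.119). Neither differed past the threshold between *oxt6* and the wild-type. The ycf3 arrays read 199.1, 115.1 and 282 in the wild-type, 206.5, 116.7 and 128.2 in *oxt6*, 48.8 and 35.5 in line 5 and 27 and 40.3 in line 6. All complemented arrays were thus below the rest.

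Neighbouring genes on the chloroplast genome, by their order in the TAIR10.1 annotation, did not always move together in the complemented plants. Beside psbB (-1.12), psbT and psbN fell by 2.54 and 2.09, whereas psbH and petB, for cytochrome b6 of the electron transport chain, rose by 1.32 and 1.46, although psbB, psbT, psbH and petB belong to a common transcription unit. The petB arrays read 1435.5 to 1942.1 in the wild-type, 1669.4 to 2069.7 in *oxt6* and 3678.6 to 5795.9 in the complemented plants, with no overlap between the complemented arrays and the others. Beside psaA (4.48) and psaB (0.40), rps14 on the one side and ycf3 on the other were lower, by -1.80 and -2.30.

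The cluster of psbE showed a common direction instead: psbE and psbF both fell by 1.13, psbL by 1.72 and psbJ by 0.85. Next to psbD (-0.18) and psbC (-0.12), which showed no difference past the threshold, psbZ was lower by -1.54. The gene psaC (-2.33) lies between ndhD (-1.35) and ndhE (-2.67), which encode subunits of the NADH dehydrogenase-like complex and were also lower. Next to psaI (-1.59), ycf4 was at 0.61 and accD, for a subunit of acetyl-CoA carboxylase, at -0.70 (adjusted p = 0.0665), and next to psaJ (-0.83), rpl33 was at 0.52 (adjusted p = 0.122) and rps18 at -1.75. Beside psbA (-0.51), matK was lower by -1.20.

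**Figure D4:**
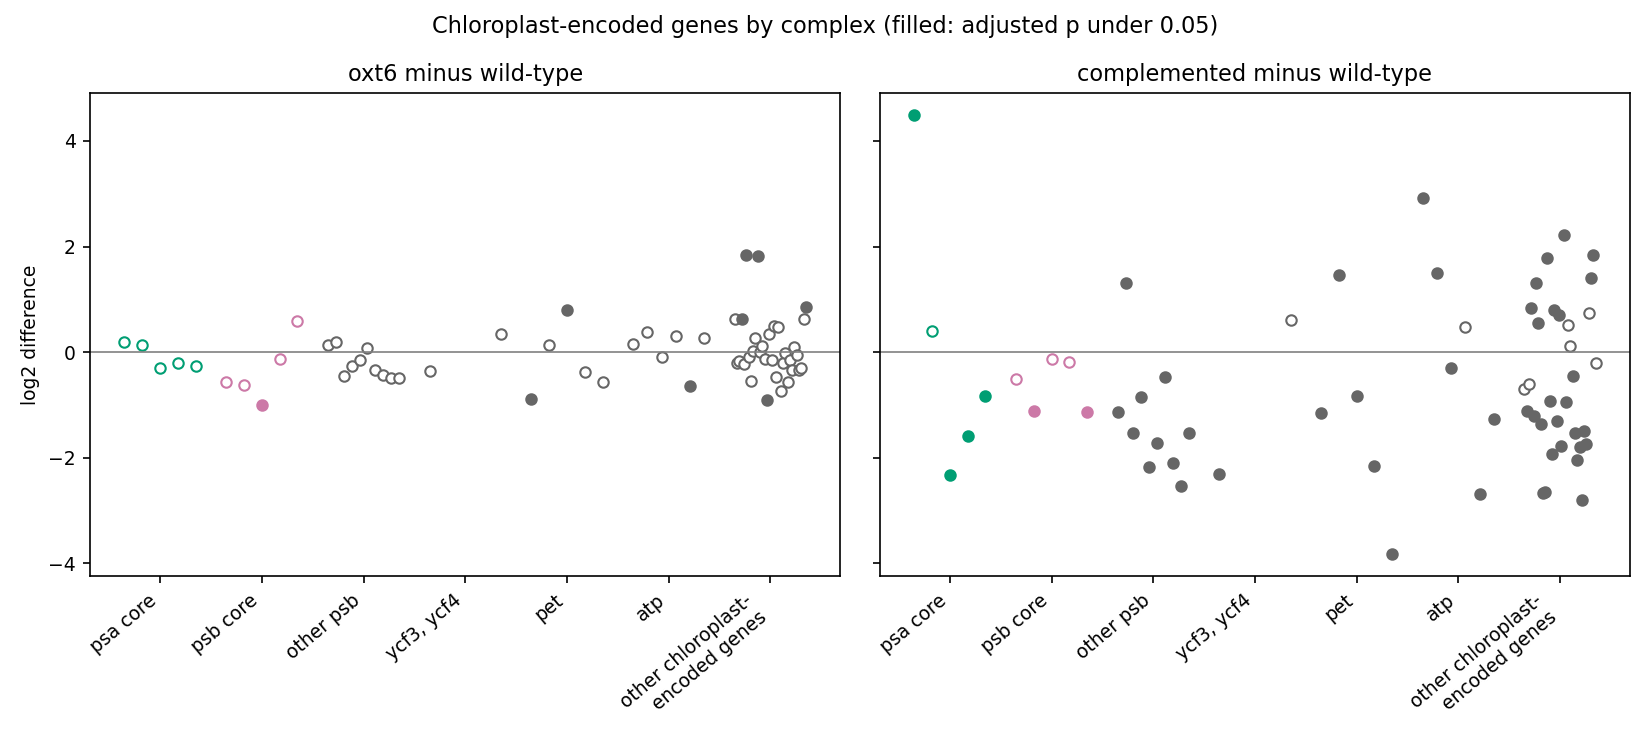
Log2 difference (vertical axis) of each chloroplast-encoded gene compared, by complex (horizontal axis), for *oxt6* minus wild-type (left) and complemented minus wild-type (right), with filled points where the adjusted p was under 0.05. Few points are filled on the left, and on the right most lie below 0, with psaA at 4.48 highest and petN at -3.83 lowest.

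The core genes were then set against the rest of the chloroplast genome. Of 59 other chloroplast-encoded genes 55 were compared. In the complemented plants 34 were lower and 13 higher than in the wild-type, beside 33.8% and 38.0% of all probe sets. Their median was -0.94, beside -0.67 for the 10 core genes. When the arrays were centred on those other genes, the median of the core genes was -0.01, psaA was higher by 5.15 and psaB passed at 1.06 (adjusted p = 3.65e-04), while psaC remained lower and psaJ, psbB and psbE no longer passed. On that scale psaJ, psbB and psbD had log2 differences of -0.08, -0.16 and -0.60 between *oxt6* and the complemented plants, opposite in sign to those given above. In that comparison psaB (-0.92), psbA (-0.70) and psbD gained a call. Between the complemented plants and the wild-type psbA, psbC and psbD also changed sign, to 0.15, 0.54 and 0.49, and none of these passed. In *oxt6* against the wild-type 5 of the 55 were higher and 3 lower, with a median of -0.09, beside 16.4% and 12.3% of all probe sets. Most of the chloroplast genome, like 9 of the 10 core genes, thus did not pass, and neither did 8877 of the 12453 probe sets compared.

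In the other complexes of the electron transport chain single genes also stood apart in the complemented plants. Of 6 ATP synthase genes compared, 2 were higher than in the wild-type and 3 lower, beside 38.0% and 33.8% of all probe sets. The genes atpA and atpB were higher by log2 2.93 and 1.498. Lower were atpH by -2.68, atpI by -1.27 and atpE by -0.31. Of 5 cytochrome b6f genes compared, petB was the only one higher, and petN had the largest decrease, of -3.83. The *oxt6* plants were lower than the wild-type at petA (-0.88, adjusted p = 0.00102) and atpH (-0.65, adjusted p = 0.0410) and higher at petG (0.80, adjusted p = 0.0474).

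Nuclear genes for the photosystems could be read only in part, since the annotation names 2 of 12 listed photosystem I subunits, 3 of 13 photosystem II subunits, 3 of 14 photosystem II antenna genes, 3 of 9 RNA and assembly factors, 1 of 8 sigma factors and polymerases (RPOTMP, too dim to be compared) and 0 of 6 each of the photosystem I antenna genes and plastid ribonucleases. Where matched, several photosystem II genes were lower in the mutant than in the wild-type: LHCB4.1 (log2 -1.37, adjusted p = 0.0203), LHCB4.2 (-0.98, adjusted p = 0.0237) and LHCB4.3 (-0.53, adjusted p = 0.0484), for the minor antenna protein CP29, and PSBY (-1.51, adjusted p = 0.00710) and PSBW (-0.63, adjusted p = 0.00709), for small subunits. *oxt6* replicate 1, whose 3'/5' signal was 1.09 against 2.88 and 2.75 in replicates 2 and 3, stood apart at several of these. LHCB4.1 read 4079.7 there and 1130.3 and 925.8 in replicates 2 and 3, beside 3940.4 to 4432.2 in the wild-type, and LHCB4.2 read 4189.9, 1764.9 and 1588.6, beside 3907.9 to 5190.4. At both genes replicate 1 thus overlapped the wild-type. PSBY read 1364.5, 440.7 and 438.2, and the marker RCA read 3350.6, 711.7 and 630.9. The part of the signal in these values was not tested. PSB27, for an assembly protein of photosystem II, did not pass (-0.07, adjusted p = 0.738). The photosystem I genes PSAE-1 (-0.34, adjusted p = 0.0831) and PSAN (0.28, adjusted p = 0.212) did not pass.

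In the complemented plants matched nuclear genes differed from the wild-type in both directions. PSAE-1 was higher than in the wild-type by 0.41 (adjusted p = 0.0104) and LHCB4.1 by 0.97 (adjusted p = 0.0313), and LHCB4.3 was lower by -0.68 (adjusted p = 0.00323). Of the assembly factors, HCF101, which is needed for iron-sulfur clusters of photosystem I, was higher by 0.91 (adjusted p = 7.89e-04) and LPA1, needed for photosystem II assembly, by 0.73 (adjusted p = 0.0117), whereas LPA66, which is needed for RNA editing of psbF, was lower by -0.71 (adjusted p = 0.0177).

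Across the 10 arrays only part of the core genes varied together. The correlation of log2 values was 0.94 between psaC and psaI and 0.93 between psaC and psaJ, but -0.94 between psaA and psaC and -0.91 between psaA and psbE. These correlations describe 10 arrays in 3 groups and follow the difference between the groups. Among 6790 other probe sets that name 1 gene, the profile most like the mean of the standardized core genes was that of AT2G22530 (r = 0.88), followed by the chloroplast gene cemA (0.88), AT3G10720 (0.84) and the chloroplast genes ndhD (0.82) and rpl20 (0.80). For photosystem I alone the closest were AT2G22530 (0.93), AT5G43190 (0.88), AT4G27654 (0.83), AT3G10720 (0.82) and AT3G04640 (0.80), and for photosystem II alone cemA (0.84), AT3G13230 (0.82), rbcL (0.82), LHW (0.81) and ndhD (0.81).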

How the data were processed

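Leaf RNA was hybridized to 10 ATH1 arrays. The authors summarised the scans with PLIER (version not given in the sources used here), and the deposited values are linear intensities, none under 16, of 22810 probe sets that include 64 controls. An annotation table names 13513 probe sets with 1 gene, 503 with several and none of 8730. Intensities plus 1 were taken to log2, and the 12453 brightest probe sets were fitted in limma 3.58.1 (R 4.3.3) with a mean per group and a trended variance, lines 5 and 6 being averaged. Adjustment was by Benjamini-Hochberg, with a threshold of 0.05. The groups come from the labels, in which the replicates of all groups are named biological. The 3'/5' signal averages, over 3 control genes, log2 of the 3' minus the 5' probe set. The fit was tested on simulated data. The number of arrays limits precision, and detection calls were not used.

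The genes, lists and tests were chosen with earlier results of these data known. Named genes are all core genes, the other chloroplast psb genes, ycf3 and ycf4, up to 4 that passed of each nuclear list, and the 5 probe sets with the most similar profiles; neighbours, b6f and ATP synthase genes, and nuclear genes that did not pass were named after their values were seen. Alternatives were the methods' t-test, quantile normalization, 2 centrings, no filter or 8000 probe sets, an offset of 16, other models, array weights (whose estimation stopped before reaching its tolerance), a threshold of 0.01, and leaving out each array. Plots used Python 3.11.15 and matplotlib 3.10.9.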

Additional observations from a re-analysis of the deposited data

Results flagged for a closer look

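The psbA readings of the complemented plants were 3246.3 and 2961.1 in line 5 and 1499.2 and 3101.1 in line 6. Line 6 replicate 1 stood apart from the other 3 arrays, with a gap that took up 0.881 of the range on the log2 scale, more than Dixon's critical value for 4 samples. Chance alone marks about 1 in 20 groups in this way.

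Line 6 differed from line 5 at 3 photosystem I genes, by a log2 of -1.21 at psaC, -1.64 at psaI and -0.77 at psaJ, each with an adjusted p under 0.05 in limma. The 3'/5' signal was 0.08 and 0.10 in line 5 and -0.05 and 0.03 in line 6. With that signal as a covariate 3 core genes differed between the lines.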

How the results depend on the processing

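For *oxt6* against the wild-type the 1 core gene called was 0 with arrays centred on their median or at an adjusted p under 0.01, 2 in the fit on only the groups compared, with the lines as separate means or with array weights, and 0 to 2 when an array was left out. The 6 called against the complemented plants were 3, and the 6 called between complemented and wild-type plants 2, by the t-test of the methods (p under 0.01, unadjusted), and both were 2 with the 3'/5' signal as a covariate. Centred on the other chloroplast genes, the median over the core genes was -0.3805 for *oxt6* against the complemented plants in place of 0.27, and -0.009682 between complemented and wild-type plants in place of -0.67, which was -1.032 with array weights; psaJ and psbD then had -0.07612 and -0.6001 against the complemented plants. The photosystem I minus photosystem II median for *oxt6* against the complemented plants, 0.52, was 0.07409 with line 5 alone, 0.8819 with array weights and 0.9292 with the 3'/5' signal. The 3 genes that differed between the lines were 1 to 3 with an array left out. The causes were not tested.

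Leaving out of single arrays aside, a core gene stayed on its side of the threshold in 131 cases for *oxt6* against the wild-type. It did so in 137 cases against the complemented plants and 142 between complemented and wild-type plants. Some of these settings use only the groups compared or a single line. The cases include genes that were not called in either fit and changed sign. With the sign kept, calls were lost in 4, 15 and 11 cases and gained in 5, 6 and 7. In 2 more cases against the complemented plants, psaJ and psbD, the sign changed with a call in 1 of the fits. The replicate numbers did not pair the samples, since wild-type and *oxt6* arrays of the same number had deviations correlated at 0.10, -0.21 and 0.13. With the replicate block 1, 6 and 6 core genes were called, as without it, and psbC against the wild-type stood at -0.998 (limma, adjusted p = 0.0289). Dim readings near the floor of 16, as those of psaA in the wild-type and *oxt6*, limit the precision of its fold.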
